A study of Homo sapiens with 4 samples.

Results

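The genes described here are 53 named genes of the long arm of chromosome 10, out of 28278 genes in the count table. They were taken by symbol from a list of genes that all start beyond 40 Mb on chromosome 10 of hg38, and all 53 were found. Their starts ran from chr10:63167221 for *JMJD1C* to chr10:131967684 for *BNIP3* in GENCODE v44. The 4 RNA libraries came from cells labelled HepG2, a human hepatocellular carcinoma line, that had received the kinase inhibitor Sorafenib at 10 µM for 24 h. All 4 had been infected with lentivirus carrying Cas9, with a control single guide RNA in 2 libraries (control) and a *USP22* guide in 2 libraries (sgUSP22). The cells were puromycin-selected stable populations, all 4 libraries received Sorafenib, and 0 libraries without the drug were compared here. The members were chosen by position after the genes of this arm had been found lower in sgUSP22 than in control, that is, with the log2 fold changes of this same contrast known, so the values below describe the members and test nothing about them.

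The long arm of chromosome 10 is lost or rearranged in several human cancers and carries genes that restrain growth signalling, among them *SUFU* in the Hedgehog pathway and *BMPR1A* in bone morphogenetic protein signalling. USP22 is the ubiquitin protease of the SAGA coactivator complex and removes ubiquitin from histones H2A and H2B. In bulk RNA, a lower count of a gene can come from fewer cells that express it or from less RNA per cell, and these cannot be told apart.

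Libraries held 62030307 to 64728272 counts, and the detection limit of 3 counts was 0.0463 to 0.0484 CPM (counts scaled to a common library total), which covers counting error only. *USP22* itself had 16450 and 16537 counts in control against 20279 and 20368 in sgUSP22, so its transcript was not lower under the knockout label, and every direction here follows that label. The label HepG2 did not match the defining markers of a hepatocyte line: 12 of 24 hepatocyte genes were listed at 0 in all 4 libraries, among them *ALB*, *APOA1*, *APOB* and *TTR*. Only 3 of the 24, *CPS1*, *CEBPA* and *ASGR1*, exceeded 1 CPM in all 4 libraries, against 10 of 12 mesenchymal genes. Summed hepatocyte markers were 965 to 1009 CPM in control and 1337 to 1360 CPM in sgUSP22 libraries, mesenchymal markers 2007 to 2027 and 2424 to 2430 CPM, and epithelial markers 1726 to 1761 and 1342 to 1394 CPM, with *CDH1* and *KRT19* at 0. Endothelial markers summed to at most 0.645 CPM, with *KDR* at 0. The part of these differences in the results below was not tested.

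All 53 members passed the filter on low counts. Of them, 47 had a fitted log2 fold change below 0 and 6 above 0, where 49.9% of the 15150 tested genes lay below 0 and 50.1% above. The median log2 fold change was -0.37 for the members, 0.00 for all tested genes (0.000913), -0.41 for the 381 other tested genes of the arm beyond 40 Mb, 0.07 for the 127 genes of chromosome 10 below 40 Mb and 0.01 for the 14047 genes placed on other chromosomes. In both sgUSP22 libraries 43 members were lower than in both control libraries, where 37.6% of all tested genes were, and 6 members were higher in both, where 38.3% were. The groups overlapped for the remaining 4, *POLR3A*, *BMPR1A*, *CHUK* and *ACSL5*. By a rule of at least 1.5-fold and a Benjamini-Hochberg adjusted p under 0.05 (edgeR, quasi-likelihood), 14 members (26.4%) were called lower, against 7.25% of all tested genes and 29.9% of the other genes of the arm. By the same rule 0 members were called higher, against 8.88% of all tested genes, and DESeq2 also called 0. At an unadjusted p below 0.05 in edgeR, 2 members lay above 0, and 0 of them reached 1.5-fold. Since the list was made from this contrast, nothing is read from these counts.

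**Figure D1:**
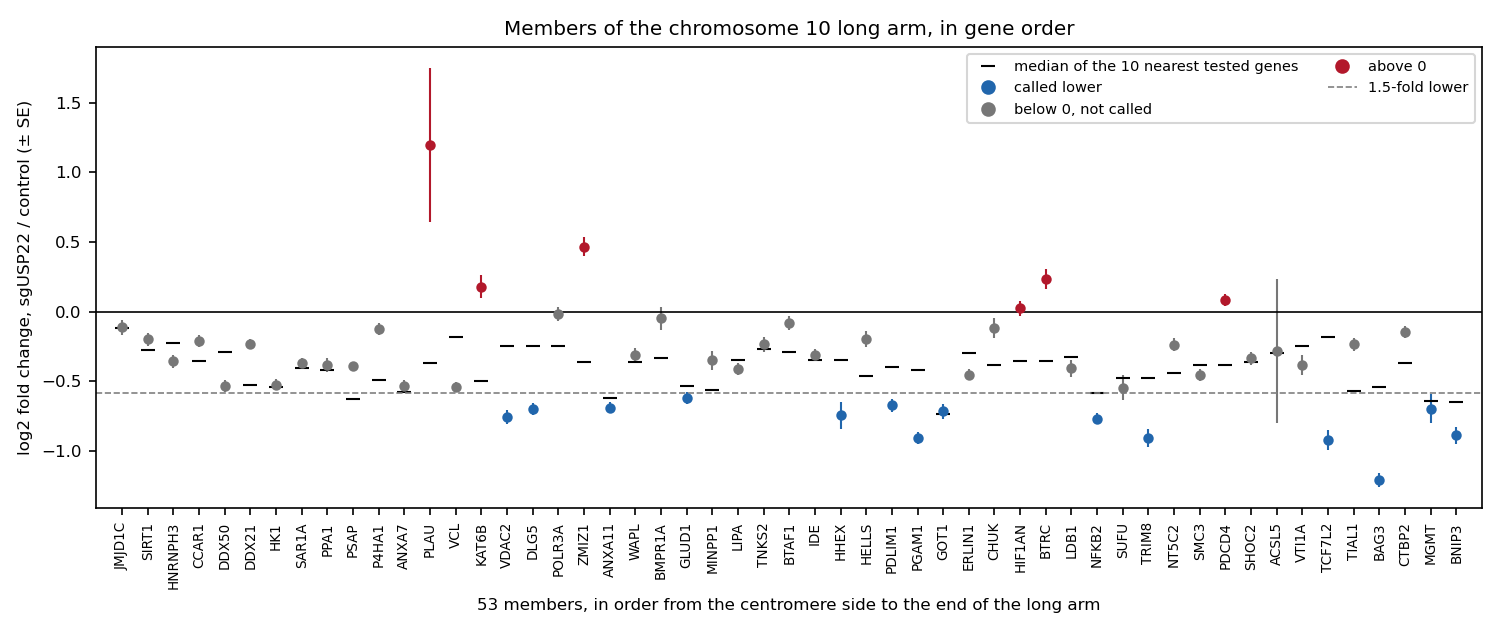
Log2 fold change of sgUSP22 against control (points, with standard errors) for the 53 members in gene order along the long arm, beside the median of the 10 nearest tested genes (black dashes). Most points along the arm lie below 0, with 14 members called lower in blue and 6 members above 0 in red. The long bars of *PLAU* and *ACSL5* belong to the members with the fewest counts.

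The plot in gene order shows no single stretch that held all the low members. From 60 to 70 Mb the 7 members had a median of -0.23, from 70 to 80 Mb 12 members had -0.38, from 80 to 90 Mb 6 members had -0.38, from 90 to 100 Mb 8 members had -0.49, from 100 to 110 Mb 9 members had -0.41 and from 110 to 120 Mb 8 members had -0.36. The medians of all tested genes in the 10 Mb windows from 60 to 140 Mb ran from -0.32 to -0.64. Across the 53 members the start position and the log2 fold change had a Spearman correlation of -0.24, which describes points that share the same 4 libraries. Replicates of a member lay close together, with a median difference of 0.051 (log2) between the control libraries and 0.052 between the sgUSP22 libraries. *PLAU* and *ACSL5* were the exceptions between the control libraries, at 0.84 and 1.20, and were at 0.21 and 0.20 between the sgUSP22 libraries. The other 51 members had at least 563 counts in every library, and their replicates differed by at most 0.17 (log2) in control and 0.22 in sgUSP22.

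Levels per length, as control CPM per kilobase of the longest annotated transcript, ranged from 0.0851 for *PLAU* to 392 for *PSAP*. *PSAP*, the precursor of the lysosomal saposins, was followed by the mitochondrial porin gene *VDAC2* (183), the glycolytic mutase gene *PGAM1* (152) and the nucleolar helicase gene *DDX21* (114). These 4 and the low-level members were all part of the same list, so the members spanned housekeeping and barely detected genes alike.

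Among the tumour suppressor and repair genes, 1 of 5 was called lower, 4 of 5 had a log2 fold change below 0, and the median was -0.54. Of all tested genes 7.25% were called lower and 49.9% lay below 0, and of the other genes of the arm 29.9% were called lower. These shares stand beside the counts of every role below. *MGMT*, which encodes the methyltransferase that repairs O6-methylguanine, had 925 and 887 counts in control and 617 and 563 counts in sgUSP22 libraries. Both sgUSP22 values were lower than both control values, and the mean was 14.7 ± 0.673 CPM (SD, n = 2) in control and 9.06 ± 0.472 CPM (SD, n = 2) in sgUSP22. The log2 fold change was -0.70 (SE 0.10). *SUFU*, the negative regulator of Hedgehog signalling, had 1027 and 1065 counts in control and 780 and 732 in sgUSP22 libraries. *ANXA7*, an annexin proposed as a tumour suppressor, had 11093 and 12217 counts in control and 8570 and 8411 in sgUSP22 libraries. Both genes were lower in both sgUSP22 libraries, at log2 fold changes of -0.55 (SE 0.090) and -0.54 (SE 0.043), and did not reach 1.5-fold. *BMPR1A*, the type I receptor gene for bone morphogenetic proteins that is mutated in juvenile polyposis, had 1828 and 1845 counts in control and 1747 and 2000 in sgUSP22 libraries. Its groups overlapped, and its log2 fold change of -0.05 (SE 0.082) turned to 0.00 (0.00346) with library size alone and came to -0.26 once trends with transcript GC content and length were removed (the GC-length correction). Without sgUSP22 replicate 1 it was 0.045 and without sgUSP22 replicate 2 it was -0.16. *PDCD4*, a translation inhibitor that binds eIF4A, had 6318 and 6718 counts in control and 7559 and 7002 in sgUSP22 libraries, a log2 fold change of 0.08 (SE 0.044) that became -0.06 after the GC-length correction and ran from 0.03 without sgUSP22 replicate 1 to 0.12 without sgUSP22 replicate 2. As fitted, *MGMT* and *SUFU* thus lay below *BMPR1A* and *PDCD4*, and after the correction *SUFU* at -0.46 and *BMPR1A* at -0.26 lay closer together.

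**Figure D2:**
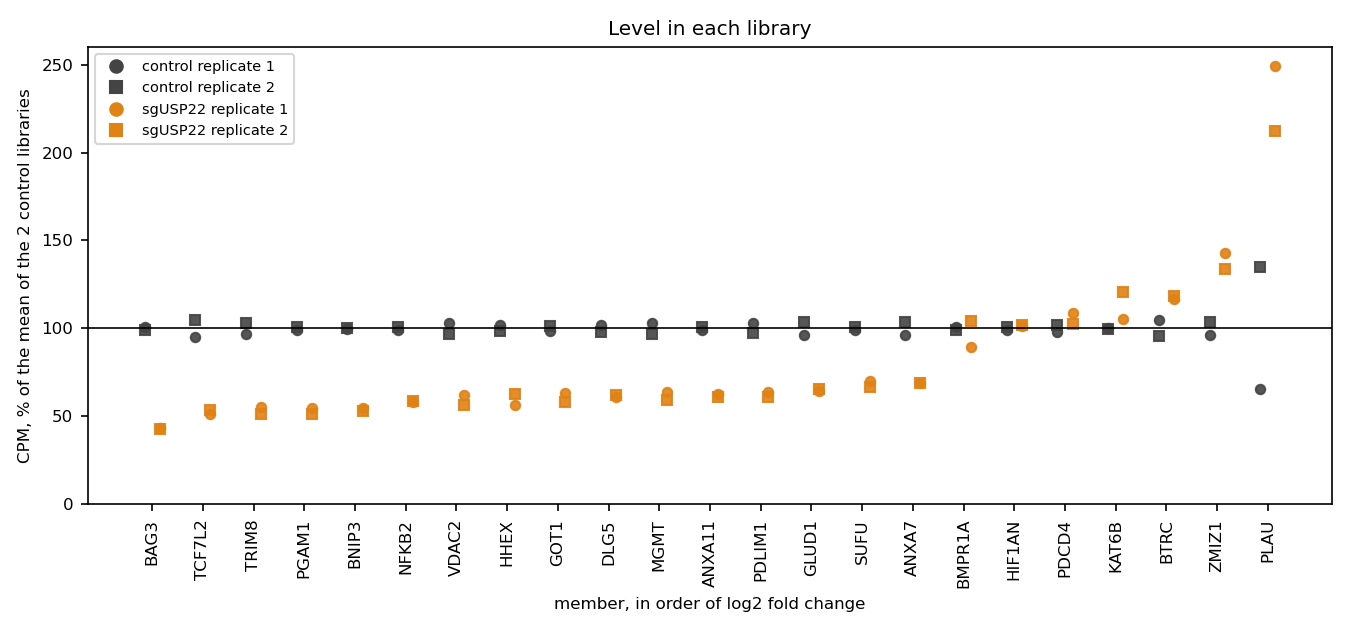
CPM in each library as a percentage of the mean of the 2 control libraries, for the members called lower, the members above 0 and the 5 tumour suppressor and repair genes. Circles are replicate 1 and squares replicate 2, control in grey and sgUSP22 in orange, and the sgUSP22 points of *BAG3* lie at 43.2% on average while those of *PLAU* lie at 231%.

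The lowest member was *BAG3*, a co-chaperone of HSP70 that acts in stress-induced autophagy and cell survival. It lies at chr10:119651380-119677819 on the plus strand and had 4606 and 4643 counts in control and 2144 and 2077 in sgUSP22 libraries. In sgUSP22 it stood at 32.4 ± 0.320 CPM (SD, n = 2), or 43.2% of its control mean. With a log2 fold change of -1.21 (SE 0.049) it was the 1 member at least 2-fold lower. *BNIP3*, a mitochondrial BH3-like protein that is induced by hypoxia and promotes mitophagy, had 2706 and 2798 counts in control and 1611 and 1526 in sgUSP22 libraries. *VDAC2*, the outer-membrane channel that holds BAK, had 17404 and 16715 counts in control and 11271 and 10078 in sgUSP22 libraries. All 3 mitochondrial and stress factors were called lower, with log2 fold changes of -0.89 (SE 0.061) for *BNIP3* and -0.76 (SE 0.051) for *VDAC2*. The groups of all 3 did not overlap. Of all tested genes 7.25% were called lower and 37.6% were lower in both sgUSP22 libraries.

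The promoters of 46 members were found in RefSeq (GRCh38.p14, from 250 bases before to 50 after each start). A single start was taken per gene, and for some, such as *JMJD1C* and *NT5C2*, it lies far inside the GENCODE span of the gene. The promoter values below rest on these starts. *BTRC*, *DLG5*, *ERLIN1*, *PPA1*, *PSAP*, *TRIM8* and *ZMIZ1* were not matched. The GC content of the 46 matched promoters had a median of 62.3%, against 58.3% for all 27305 promoters. It was 70.5% for the 12 matched members called lower against 59.0% for the other 34. The GC box GGGCGG, the core bound by SP-family factors, was found on either strand in 27 of 46 members (58.7%), in 9 of the 12 called lower and in 2 of the 4 above 0, against 44.6% of all promoters. The other members with the box were among the 34 not called. Here and below, the set of all promoters was not limited to genes past the filter on low counts, which all members passed, so the 2 sets are unlike. The next 4 promoters are those of the lowest member, of the repair gene *MGMT* and of 2 members above 0, and they are shown because they differ in this box. Each is 300 bases long, read 5′ to 3′ on the strand of the gene, with GGGCGG or its complement CCGCCC in capitals. *BAG3* (chr10:119651130-119651429, plus strand) held 6 boxes and *MGMT* (chr10:129466991-129467290, plus strand) held 8, while *PDCD4* (chr10:110871678-110871977, plus strand) and *KAT6B* (chr10:74825005-74825304, plus strand) held 1 each. The 4 are not typical of their groups. Other members called lower held from 0 boxes (*NFKB2*, *VDAC2* and *ANXA11*) to 8 (*PDLIM1*), and members not called from 0 (such as *HK1*) to 4 (*SIRT1*). 
BAG3: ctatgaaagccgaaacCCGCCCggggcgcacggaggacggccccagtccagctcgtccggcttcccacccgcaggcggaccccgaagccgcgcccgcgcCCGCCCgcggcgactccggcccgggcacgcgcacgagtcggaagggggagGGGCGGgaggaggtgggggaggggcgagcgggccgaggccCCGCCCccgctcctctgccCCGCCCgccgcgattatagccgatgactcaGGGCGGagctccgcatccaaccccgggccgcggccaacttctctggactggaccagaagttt
MGMT: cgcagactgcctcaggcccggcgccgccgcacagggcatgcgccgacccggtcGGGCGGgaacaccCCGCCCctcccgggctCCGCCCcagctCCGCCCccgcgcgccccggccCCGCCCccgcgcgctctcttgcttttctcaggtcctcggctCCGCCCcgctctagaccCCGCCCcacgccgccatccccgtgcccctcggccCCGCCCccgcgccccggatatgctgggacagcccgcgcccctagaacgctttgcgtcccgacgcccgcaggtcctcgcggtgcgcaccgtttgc
PDCD4: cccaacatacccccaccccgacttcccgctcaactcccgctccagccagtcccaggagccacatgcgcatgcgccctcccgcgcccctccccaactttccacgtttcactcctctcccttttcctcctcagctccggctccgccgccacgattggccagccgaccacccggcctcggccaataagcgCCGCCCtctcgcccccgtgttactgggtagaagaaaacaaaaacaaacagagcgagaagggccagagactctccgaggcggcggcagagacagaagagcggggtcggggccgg
KAT6B: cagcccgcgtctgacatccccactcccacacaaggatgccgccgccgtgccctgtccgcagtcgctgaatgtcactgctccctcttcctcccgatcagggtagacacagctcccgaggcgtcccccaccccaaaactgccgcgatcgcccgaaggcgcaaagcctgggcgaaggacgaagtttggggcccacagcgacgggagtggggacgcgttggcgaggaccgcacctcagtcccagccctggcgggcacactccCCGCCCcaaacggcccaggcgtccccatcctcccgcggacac

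Across the 46 members the Spearman correlation of promoter GC content with the log2 fold change was -0.33, and it was -0.09 over 229 other genes of the arm and -0.08 over 9004 genes of other chromosomes, all above 1 log2 CPM outside the members. These are correlations across genes of the same 4 libraries, and a match to 6 letters does not show that a factor binds.

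The 4 hypoxia-inducible members differed widely. *PGAM1*, the glycolytic phosphoglycerate mutase gene, had 16551 and 17173 counts in control and 9875 and 9094 in sgUSP22 libraries, a log2 fold change of -0.91 (SE 0.041). *HK1*, which encodes the first enzyme of glycolysis, had a log2 fold change of -0.53 (SE 0.040), and *P4HA1*, a collagen prolyl hydroxylase subunit gene, had -0.13 (SE 0.046). With *BNIP3* at -0.89, 2 of the 4 were called lower, against 7.25% of all tested genes. All 4 were lower in both sgUSP22 libraries, as were 37.6% of all tested genes. The hypoxia response core, ACGTG or GCGTG on either strand, was found in 24 of 46 member promoters (52.2%) and in 48.4% of all promoters, and the E-box CACGTG contains it. The promoters of *BNIP3* and *P4HA1* are shown because these 2 genes differ in their values and in their number of cores, which are in capitals. *BNIP3* (chr10:131981874-131982173, minus strand) held 6 matches, a pair of which overlap, and *P4HA1* (chr10:73096817-73097116, minus strand) held 1. The promoters taken for the other 2 hypoxia-inducible members, *PGAM1* (-0.91) and *HK1* (-0.53), held 0, so at these starts the number of cores did not follow the values across the 4. The stretch taken for *PGAM1* (chr10:97427568-97427867) lies inside its GENCODE span, which starts at chr10:97426191, so its 0 rests on that start. 
BNIP3: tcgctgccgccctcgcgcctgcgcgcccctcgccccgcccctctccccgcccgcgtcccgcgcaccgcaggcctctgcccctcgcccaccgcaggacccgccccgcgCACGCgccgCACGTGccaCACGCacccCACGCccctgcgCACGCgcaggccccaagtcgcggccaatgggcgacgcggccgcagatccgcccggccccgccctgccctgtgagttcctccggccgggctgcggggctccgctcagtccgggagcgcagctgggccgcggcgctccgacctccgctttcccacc
P4HA1: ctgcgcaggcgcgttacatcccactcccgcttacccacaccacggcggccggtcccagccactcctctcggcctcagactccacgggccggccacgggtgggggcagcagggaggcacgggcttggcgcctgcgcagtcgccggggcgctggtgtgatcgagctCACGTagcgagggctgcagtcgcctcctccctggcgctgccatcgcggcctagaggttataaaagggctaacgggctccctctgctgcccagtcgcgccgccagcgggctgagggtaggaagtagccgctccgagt

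The remaining metabolic enzymes were mostly lower without reaching 1.5-fold. Of the 12 metabolic and lysosomal genes, 3 were called lower, 12 lay below 0 and the median was -0.39. *GOT1*, the cytosolic aspartate aminotransferase gene of the malate-aspartate shuttle, had 4991 and 5241 counts in control and 3459 and 3112 in sgUSP22 libraries, a log2 fold change of -0.72 (SE 0.053). *GLUD1*, which encodes mitochondrial glutamate dehydrogenase, had 16466 and 18205 counts in control and 11900 and 11889 in sgUSP22 libraries, a log2 fold change of -0.62 (SE 0.043). *GLUD1* was the member just inside the 1.5-fold threshold and *SUFU* the one just outside, and *GLUD1* was no longer past it with library size alone (-0.57) or without control replicate 2 (-0.56). *PGAM1* and *GLUD1* have retrotransposed copies and pseudogenes elsewhere, so some of their reads may be split among near-identical sequences. The inorganic pyrophosphatase gene *PPA1* (-0.38), *PSAP* (-0.39), the inositol polyphosphate phosphatase gene *MINPP1* (-0.35) and the insulin-degrading protease gene *IDE* (-0.31) lay near the median of the arm. The cytosolic nucleotidase gene *NT5C2* was at -0.24. The lysosomal acid lipase gene *LIPA* had a log2 fold change of -0.41, but the annotated span of *LIPA* overlaps 4 *IFIT* genes on the opposite strand, and the strand setting of the counting is not given in the sources used here. Opposite-strand genes also overlap *GLUD1*, *JMJD1C*, *HNRNPH3*, *SHOC2*, *PLAU*, *PDCD4*, *HIF1AN*, *VCL*, *NT5C2*, *ACSL5*, *VTI1A* and *CTBP2*, whose counts carry the same uncertainty. *ACSL5*, an acyl-CoA synthetase gene, had 49 and 20 counts in control and 28 and 32 in sgUSP22 libraries, so its groups overlapped and a change was not detectable at this depth.

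Signalling genes lay on both sides of 0. Of 8 genes, 3 were called lower, 2 lay above 0 and the median was -0.29, which came to -0.50 after the GC-length correction. *TCF7L2*, the Wnt pathway transcription factor gene, had 2364 and 2667 counts in control and 1383 and 1410 in sgUSP22 libraries, a log2 fold change of -0.93 (SE 0.072). *TRIM8*, a ubiquitin ligase gene of cytokine signalling, had 2911 and 3180 counts in control and 1792 and 1629 in sgUSP22 libraries, a log2 fold change of -0.91 (SE 0.065). *NFKB2*, the p100/p52 subunit gene of the non-canonical NF-κB pathway, had 7905 and 8252 counts in control and 5017 and 4969 in sgUSP22 libraries. Its log2 fold change was -0.77 (SE 0.039), whereas *CHUK*, the gene of the IKKα kinase that drives p100 processing, had 2700 and 2886 counts in control and 2543 and 2894 in sgUSP22 libraries, which overlapped. After the correction *NFKB2* was at -0.60 and *CHUK* moved from -0.12 to -0.34, and as fitted *CHUK* was at -0.03 without sgUSP22 replicate 1 and at -0.23 without sgUSP22 replicate 2. *BTRC*, the F-box gene whose product marks β-catenin and IκB for degradation, had 1735 and 1621 counts in control and 2090 and 2082 in sgUSP22 libraries. Its log2 fold change was 0.23 (SE 0.071), on the opposite side of 0 from *TCF7L2* and *NFKB2*. *HIF1AN*, the asparagine hydroxylase gene that restrains HIF, had 2479 and 2591 counts in control and 2737 and 2705 in sgUSP22 libraries, and its log2 fold change of 0.02 (SE 0.053) became -0.16 after the GC-length correction and was 0.01 without control replicate 1. The tankyrase gene *TNKS2* (-0.24) and the RAS-RAF scaffold gene *SHOC2* (-0.34) lay between these, and *TNKS2* was at -0.15 without control replicate 2.

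**Figure D3:**
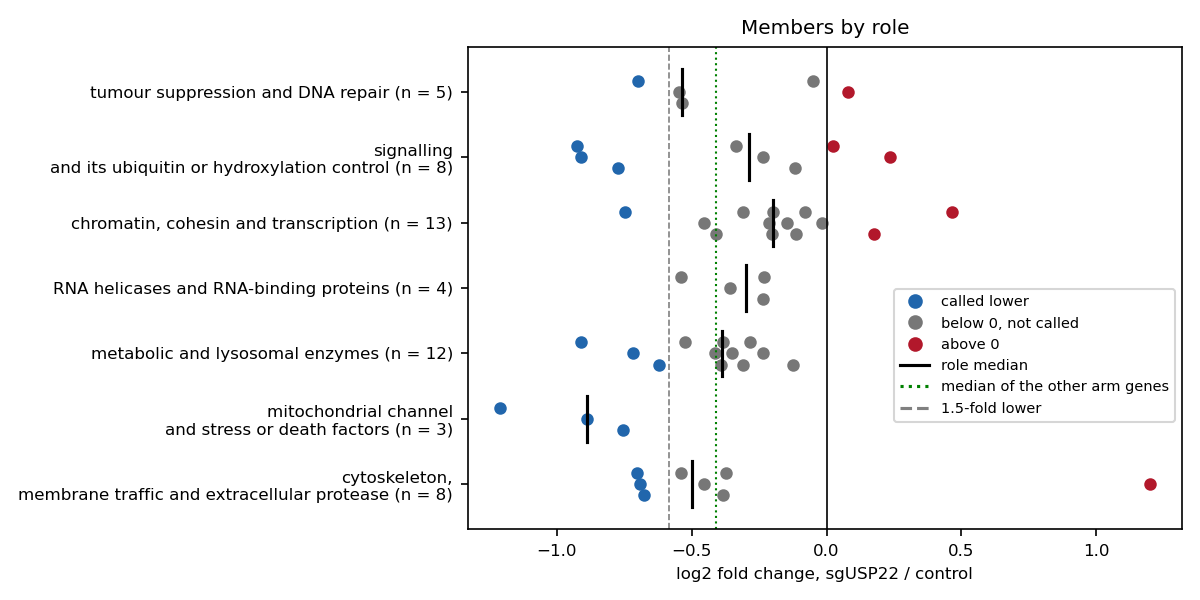
Log2 fold change of each of the 53 members, by role, with the role median as a black bar, the median of the 381 other genes of the arm as a green dotted line and 1.5-fold lower as a grey dashed line. Chromatin genes have the median nearest 0 as fitted, at -0.20, the 3 mitochondrial and stress genes sit lowest, with a median of -0.89, and the lone point beyond 1 is *PLAU*.

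Chromatin, cohesin and transcription genes had the median nearest 0 of the 7 roles, as fitted and after the GC-length correction. Of 13 genes, 1 was called lower, 11 lay below 0 and the median was -0.20, which came to -0.33 with that correction. *HHEX*, a homeobox gene needed for liver development, had 1132 and 1119 counts in control and 678 and 739 in sgUSP22 libraries, a log2 fold change of -0.75 (SE 0.096). The cohesin core gene *SMC3* (-0.45) and the cohesin release factor gene *WAPL* (-0.31) were lower in both sgUSP22 libraries, as was the LIM-domain cofactor gene *LDB1* (-0.41). The deacetylase gene *SIRT1* (-0.20), the helicase genes *HELLS* (-0.20) and *BTAF1* (-0.08), the coactivator gene *CCAR1* (-0.21), the corepressor gene *CTBP2* (-0.15) and the demethylase-family gene *JMJD1C* (-0.11) did not reach 1.5-fold. After the correction *JMJD1C* was at -0.36 and *BTAF1* at -0.33. Without sgUSP22 replicate 1 these 2 were at -0.07 and -0.04, and without sgUSP22 replicate 2 at -0.18 and -0.14. *POLR3A*, the largest subunit gene of RNA polymerase III, had 3031 and 2944 counts in control and 3166 and 3071 in sgUSP22 libraries, and its log2 fold change of -0.02 (SE 0.053) turned to 0.04 with library size alone.

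The other 2 chromatin genes, *ZMIZ1* and *KAT6B*, lay above 0. *ZMIZ1*, a PIAS-like coactivator gene at chr10:79068966-79316519 on the plus strand, had 1704 and 1880 counts in control and 2723 and 2504 in sgUSP22 libraries. Its level was 29.0 ± 1.55 CPM (SD, n = 2) in control and 40.1 ± 1.87 CPM (SD, n = 2) in sgUSP22, with a log2 fold change of 0.47 (SE 0.068) that stayed between 0.41 and 0.52 in every fit. *KAT6B*, a histone acetyltransferase gene, had 1440 and 1472 counts in control and 1636 and 1839 in sgUSP22 libraries, a log2 fold change of 0.18 (SE 0.083) that came to 0.03 after the correction and was 0.08 without sgUSP22 replicate 2. *PLAU*, the gene of urokinase, a secreted protease that activates plasminogen, had 9 and 19 counts in control and 37 and 31 in sgUSP22 libraries. Its 1.20 (SE 0.56) was the highest log2 fold change among the members and rested on few counts, with 0.77 without control replicate 1 and 1.81 without control replicate 2. All 6 members above 0 had both sgUSP22 libraries above both control libraries, as had 38.3% of all tested genes. None of the 6 was called higher, against 8.88% of all tested genes. With no fold change threshold *ZMIZ1* and *BTRC* were, and 26.8% of all tested genes were called higher by that rule.

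RNA helicase and RNA-binding genes all lay below 0, and 0 of 4 were called lower. The neighbouring paralogs *DDX50* and *DDX21* had log2 fold changes of -0.54 (SE 0.044) and -0.23 (SE 0.032). *DDX50* had 4992 and 5005 counts in control and 3663 and 3609 in sgUSP22 libraries, and the more abundant *DDX21* had 32781 and 34538 counts in control and 30636 and 29842 in sgUSP22 libraries. These paralogs lie next to each other, and both were lower in both sgUSP22 libraries, as were 37.6% of all tested genes. The splicing factor gene *HNRNPH3* was at -0.36 and *TIAL1*, a translational silencer gene of stress granules, at -0.24.

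Of 8 cytoskeletal, membrane traffic and protease genes, 3 were called lower and the median was -0.50. *DLG5*, a polarity scaffold gene, had 5702 and 5607 counts in control and 3663 and 3678 in sgUSP22 libraries, a log2 fold change of -0.70 (SE 0.045). *ANXA11*, an annexin gene, had 8553 and 8929 counts in control and 5815 and 5606 in sgUSP22 libraries, a log2 fold change of -0.69 (SE 0.038). *PDLIM1*, an actin-associated LIM gene, had 6280 and 6074 counts in control and 4220 and 3952 in sgUSP22 libraries, a log2 fold change of -0.68 (SE 0.048) that came to -0.54 after the correction. *VCL*, the gene of the focal adhesion protein vinculin, was at -0.54 as fitted and at -0.68 after it. The lipid raft gene *ERLIN1* (-0.46), the SNARE gene *VTI1A* (-0.38) and the COPII GTPase gene *SAR1A* (-0.37) were lower in both sgUSP22 libraries without reaching 1.5-fold.

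Each member was also set beside its own surroundings, as the median of the 5 nearest tested genes on each side. The log2 fold change was above that median for 31 members and below it for 22. *ZMIZ1*, *BTRC*, *PLAU* and *P4HA1* were higher than all 10 of their neighbours, whose medians were -0.36, -0.35, -0.37 and -0.49. The neighbours of these members thus lay below the members themselves. *TCF7L2*, *BAG3* and *HHEX* had 0 of 10 neighbours below them. The neighbours of *TCF7L2* had a median of -0.18 and *TCF7L2* lay -0.75 from it, and *BAG3* lay -0.67 from a median of -0.54. *GOT1*, in contrast, lay 0.02 from the median of -0.73 of its neighbours, and *MGMT* lay -0.05 from -0.64.

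The size of the drop moved with transcript length. The 26 members longer than the median of 4678 bases had a median log2 fold change of -0.24, and the 27 others had -0.46. The same order was seen elsewhere, with 0.13 and -0.05 for genes of other chromosomes above and at or below that length, and with -0.35 and -0.44 for the other genes of the arm. After the correction the longer members had a median of -0.39 and the shorter ones -0.46, both below 0. The correction called 17 members lower, 13 of which were called as fitted, and left 4 members above 0. The 4 were *PLAU* (1.31), *ZMIZ1* (0.50), *BTRC* (0.14) and *KAT6B* (0.03). *SMC3* (-0.70), *SHOC2* (-0.64), *DDX50* (-0.59) and *VCL* (-0.68) were called lower only with the correction among the settings with all 4 libraries and the 1.5-fold threshold. Members that moved by over 1.5 times without a change of call were *IDE* (-0.56), *WAPL* (-0.49), *TIAL1* (-0.42), *TNKS2* (-0.40), *HELLS* (-0.39), *NT5C2* (-0.39), *CCAR1* (-0.37), *DDX21* (-0.35), *SIRT1* (-0.31), *CTBP2* (-0.28), *P4HA1* (-0.22) and *POLR3A* (-0.10), besides those whose corrected values stand above. The part of length and GC content in the values of single members was not tested further.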

How the data were processed

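RNA was sequenced from 2 control and 2 sgUSP22 libraries. The authors aligned reads to hg38 with HISAT2 2.2.1 and deposited whole-number gene counts from StringTie 2.2.1, not normalized for library size; the annotation and strand setting are not given in the sources used here. Columns were assigned by name. Totals ran from 62030307 to 64728272 counts. Counts were fitted in R 4.3.3 with edgeR 4.0.16 (TMM, glmQLFit, glmQLFTest, and filterByExpr at a minimum count of 10, Benjamini-Hochberg over 15150 tested genes). Each standard error was taken as the size of the log2 fold change over the square root of F. Calls used an adjusted p-value below 0.05 and at least 1.5-fold, the thresholds of the paper. The code was tested on simulated data. Of 28278 symbols, 26193 were matched to GENCODE v44 for position, transcript length and GC content, and the correction removed lowess trends (span 0.3) in each library. CPM differences between replicates used a pseudocount of 0.05 CPM. The members, the 40 Mb boundary, roles and lists were chosen with earlier results of these data known. All members are named, with counts for those called, those above 0, the tumour suppressors and those nearest the threshold. Alternatives were DESeq2 1.42.0, RLE factors, library size alone, other count filters, the replicate block, the correction, no fold threshold and leaving out each library. Labels do not say whether replicates were separate cultures, so their spread may be technical. The blood cell marker list is not reported here.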

Additional observations from a re-analysis of the deposited data

How the results depend on the processing

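In every setting with the 1.5-fold threshold, 13 to 17 members were called lower and 0 higher. With no fold change threshold 41 members were called lower and 2 higher, against 25.8% and 26.8% of all tested genes, and 267 genes of the arm were lower, by construction. The median of the members was -0.37, -0.32 under scaling by library size alone and -0.44 after the GC-length correction, and that of all genes of the arm was -0.40, -0.35 and -0.46. When single libraries were dropped, the member median ran from -0.40 to -0.34, members called lower from 13 to 15, the arm median from -0.42 to -0.39, arm genes called lower from 117 to 125 and those called higher from 12 to 19, against 19, the 12 without sgUSP22 replicate 2. The cause was not tested. Of 369 comparisons of a member with another setting, 359 kept direction and call. Direction reversed for *BMPR1A* (0.00346) and *POLR3A* (0.035) with library size alone and for *PDCD4* (-0.056) and *HIF1AN* (-0.16) after the correction, and with 1 library left out for *ACSL5* (-0.80 to 0.52), *BMPR1A* (-0.16 to 0.045) and *POLR3A* (-0.054 to 0.020). Without control replicate 1 *ANXA7* was called lower (-0.59), as was *SUFU* without sgUSP22 replicate 1 (-0.59). A shared replicate number did not make libraries deviate together (correlation 0.042), so no pairing was assumed, and with the replicate block 14 members were called lower and 0 higher, 127 genes of the arm lower and 18 higher, with medians of -0.37 and -0.41. Depth limits *PLAU* and *ACSL5* most, with 9 to 49 counts a library.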

Other observations

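Of the 434 tested genes of the arm, 107 were at or below 1 log2 CPM. Their median log2 fold change was -0.28, 19 of them were called lower and 12 higher, and their replicates differed by a median of 0.38 (log2) in both groups. The 276 genes above that level that are not members had a median of -0.43, with 95 called lower and 7 higher, and their replicates differed by a median of 0.065 in control and 0.069 in sgUSP22 libraries.

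Across all 53 members the log2 fold change and the log2 control CPM had a Spearman correlation of -0.27. For the 51 members above 1 log2 CPM it was -0.22. For other genes above that level it was -0.15 across 276 genes of the arm and -0.17 across 11298 genes of other chromosomes. Each is a correlation across genes of the same 4 libraries, and the control level is itself part of the fold change.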
